A study of Mus musculus with 18 samples.

Results

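The negative feedback genes of the Wnt pathway were followed through 18 mouse cell samples, each measured on 1 single-colour expression array. The 7 genes, Axin2, Rnf43, Znrf3, Notum, Apcdd1, Nkd1 and Nkd2, were taken by name from a list. Each was found under a single gene symbol on the platform and was read by 1 probe set. They are 7 of 19938 genes measured in this way. No measured value entered their choice as members, but the list was drawn up with earlier results of these data known.

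Canonical Wnt signalling raises the level of beta-catenin, the protein of Ctnnb1, which then works with Tcf and Lef factors on target genes. Without a Wnt signal, a destruction complex built on Apc and axin marks beta-catenin for breakdown. Several target genes encode inhibitors that act back on the pathway at different steps. Axin2 is a scaffold of the destruction complex. Rnf43 and Znrf3 are membrane ubiquitin ligases that remove Frizzled receptors and are themselves cleared by R-spondins acting with Lgr receptors. Notum is a secreted enzyme that strips the lipid from Wnt ligands, and Apcdd1 is a membrane protein that binds Wnt ligands and their co-receptor. Nkd1 and Nkd2, the Naked cuticle homologues, bind Dishevelled in the cytoplasm. In the intestinal crypt such genes mark Wnt-active cells, and tumours that have lost Apc carry high levels of several of them.

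The study asked what Apc mutation and mutant beta-catenin do to gene expression in different cell types. Reprogrammed colon tumour cells (RTCs) are lines made from colon tumours by the methods used for induced pluripotent stem cells, and 3 of them were measured. RTC 1 gave rise to derivative #45 and RTC 3 to derivative #9, each measured on 1 array. Embryonic stem cells (ESCs) of the genotypes Apc Min/Min, Apc Min/+ and Apc +/+ had 1 array each, Min being a truncating mutation of Apc. Small intestinal organoids derived from #45 had 1 array with 4-hydroxytamoxifen (4-OHT) and 1 without. Embryonic fibroblasts (MEFs) derived from #45 had 2 arrays with and 2 without 4-OHT. The doses were 1 uM in organoids and 2 ug/ml in MEFs, for 2 days. Cells named S33 had 1 array with and 1 without doxycycline (dox) as ESCs, and the same as MEFs. The labels give no Apc genotype for the RTCs and no account of how the derivatives were altered, of the target of 4-OHT or of the name S33. From outside the labels, and as background alone, derivatives are read here as RTCs whose Apc function was restored, with 4-OHT removing it again. Organoids and MEFs thus share the alleles of 1 clone. The dox arms are taken to be the induction of mutant beta-catenin that the series text names. The p-values measure the spread between the arrays compared. For MEFs nothing says that replicate arrays were separate cultures, so their spread may be technical. The RTC, derivative and ESC arrays compared come from different lines or genotypes. There, spread between lines and technical spread cannot be told apart. In such bulk samples fewer cells of a type and less RNA per cell cannot be told apart.

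Values are log2 intensities after the arrays were quantile normalized together, a step that gives every array the same distribution, with a median of 7.93. On this scale a difference of 1 is a 2-fold change. Levels of different genes are not compared, since each probe set has its own response. Pluripotency markers averaged 12.46 to 12.81 in the 10 pluripotent arrays and at most 7.05 elsewhere. The 11 intestinal epithelium markers averaged 12.60 and 12.77 in organoids and at most 6.69 elsewhere. The 11 fibroblast markers averaged 12.01 to 12.65 in MEFs and 7.20 and 7.41 in organoids. They averaged 8.27 to 10.92 in pluripotent arrays, where 8 to 11 of them stood above the array median. Immune cell markers averaged 9.17 and 9.48 in the first pair of #45-derived MEFs against 7.75 and 7.97 in the second, and 9.25 and 9.34 in RTC 2 and RTC 3 against 8.44 in RTC 1. The Apc and Ctnnb1 probe sets read whole transcripts and check neither a point mutation nor a transgene.

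In RefSeq's GRCm38.p6 annotation, 4 members lie on chromosome 11: Axin2 at 108917828 to 108950783, Rnf43 at 87663087 to 87735539, Znrf3 at 5276329 to 5444847 and Notum at 120653788 to 120661193. Nkd1 is on chromosome 8 (88521342 to 88594887) and Nkd2 on chromosome 13 (73818534 to 73847631). The positions of the probes within the genes were not used here. Promoter windows were looked at because all 7 genes were raised together in S33 MEFs with dox. RefSeq windows, from 250 bases before to 50 bases after a start site, were at hand for 4 members in 5 windows (Axin2, Nkd1, Nkd2 and 2 starts of Rnf43). Znrf3, Notum and Apcdd1 are named only. The core letters of Tcf and Lef sites, CTTTGA on either strand, matched in 0 of these 5 windows, while 16% of 32851 windows of the same length held them. That says only that the letters are not in these windows. The windows of Axin2 and Nkd1 (chr8:88527383-88527682) lie inside the annotated genes, so the outermost starts of these genes were not searched. The windows of Axin2 and Nkd2 are shown because the values of these 2 genes differed in opposite directions in RTCs and in the same direction in S33 MEFs. They lie at chr11:108920099-108920398 on the plus strand and chr13:73847582-73847881 on the minus strand, written 5′ to 3′ with the 50 bases from the start site on in capitals:
Axin2: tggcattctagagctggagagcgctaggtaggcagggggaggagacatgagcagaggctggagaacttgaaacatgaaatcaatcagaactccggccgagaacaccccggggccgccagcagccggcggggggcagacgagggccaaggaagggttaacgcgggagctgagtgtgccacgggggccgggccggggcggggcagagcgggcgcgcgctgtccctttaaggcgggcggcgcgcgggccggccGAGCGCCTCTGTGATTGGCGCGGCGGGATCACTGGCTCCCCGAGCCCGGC
Nkd2: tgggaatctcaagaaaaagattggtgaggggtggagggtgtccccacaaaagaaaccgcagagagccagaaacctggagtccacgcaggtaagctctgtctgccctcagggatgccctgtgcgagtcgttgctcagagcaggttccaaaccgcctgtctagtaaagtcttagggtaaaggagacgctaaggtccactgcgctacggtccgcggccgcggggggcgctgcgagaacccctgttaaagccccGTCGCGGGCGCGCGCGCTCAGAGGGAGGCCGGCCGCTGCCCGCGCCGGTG
G and C made up 70.0% of the Axin2 window and 63.0% of the Nkd2 window, against a median of 52.7% over all windows. The same share was 58.3% for Nkd1, and 46.7% and 44.3% for the windows of Rnf43.

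Across the 18 arrays the members fell into different patterns by cell type. Axin2, Rnf43 and Znrf3 were at their highest in organoids. Axin2 was at 11.81 with 4-OHT and 11.30 without in organoids, and next came S33 MEFs with dox (11.27), the Apc Min/Min ESCs (10.90) and the RTCs (10.41 to 10.57). Every other array lay at 9.35 or below, a gap of more than 1 log2 unit where the pooled SD between replicate arrays was 0.18 (5 degrees of freedom, from RTCs, derivatives and both groups of #45-derived MEFs). The arrays within 8.26 to 8.81, which include the derivatives, Apc +/+ and Apc Min/+ ESCs and every MEF array but S33 with dox, followed each other by less than that SD.

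Rnf43 stood at 12.18 and 11.54 in organoids with and without 4-OHT, at 10.14 in S33 MEFs with dox, and at 6.99 to 8.34 in the other 15 arrays. It stood above the array median on 8 of 18 arrays, so its lower levels are dim. Znrf3 was above the median on every array, with 11.30 and 10.84 in organoids with and without 4-OHT and 9.15 to 10.46 elsewhere. Its pooled SD of 0.37 came mostly from the derivatives, at 9.15 in #45 and 10.32 in #9.

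The other 4 genes had their highest level in S33 MEFs with dox. Notum was at 10.60 there, then at 8.96 in Apc Min/Min ESCs and 8.55 in organoids with 4-OHT, and between 7.30 and 8.14 in all others. Notum passed the array median on 7 arrays. Apcdd1 and the Naked genes were higher in untreated MEFs than in control ESCs. Apcdd1 was at 9.46, 10.15 and 10.10 in MEFs without 4-OHT or dox, and at 8.62 to 8.98 in the 3 ESC arrays that serve as controls here (Apc Min/+, Apc +/+ and S33 without dox). Nkd1 was at 9.91, 9.90 and 9.83 in those MEFs, and at 8.15 to 9.08 in those ESCs. Nkd2 was at 9.17, 9.01 and 9.25 in the same MEFs, at 8.06 to 8.49 in those ESCs, and at 7.32 and 7.07 in organoids with and without 4-OHT. These MEF levels were not tested against ESCs, and fibroblast markers moved with them: they averaged 12.41 to 12.65 in those MEFs and 9.06 to 10.48 in those ESCs.

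**Figure D1:**
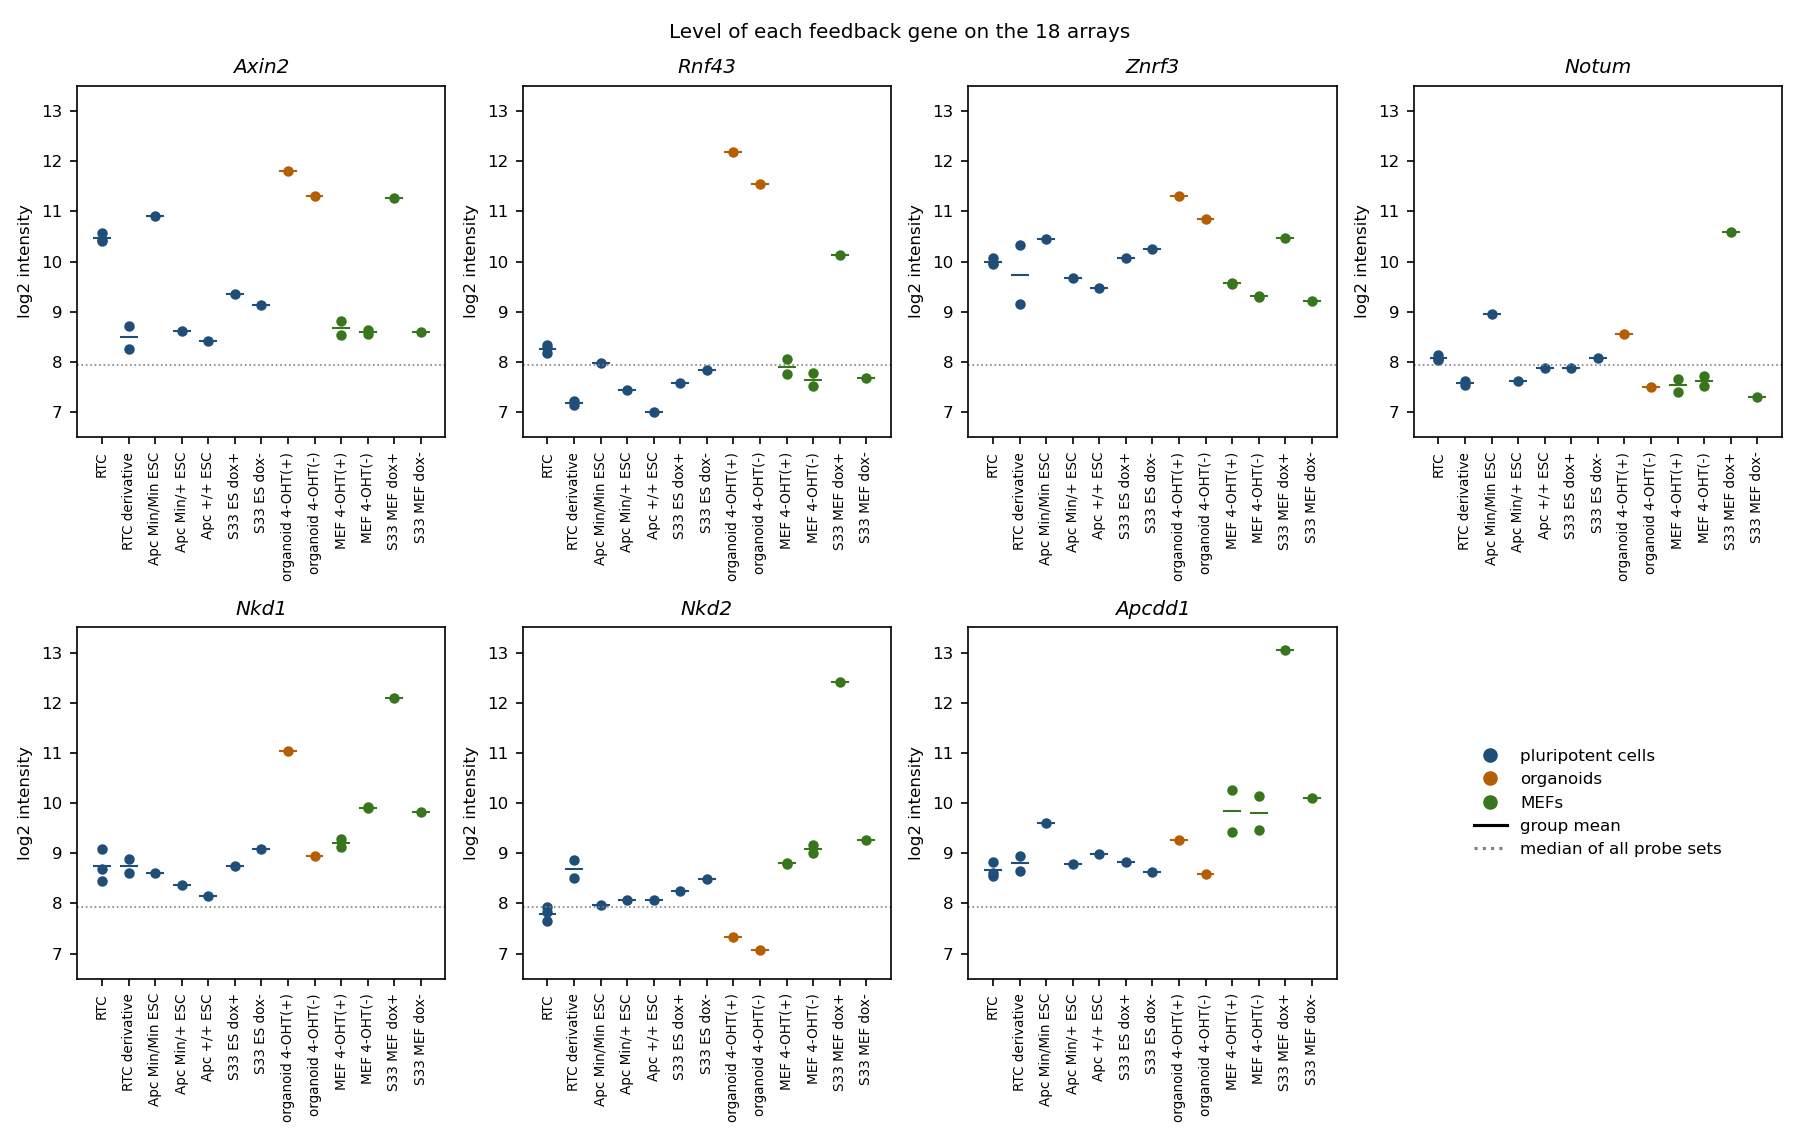
Log2 intensity (vertical axis) of each feedback gene on every array, by group along the horizontal axis, with points for arrays and bars for group means. Axin2, Rnf43 and Znrf3 peak in organoids, and Notum, Nkd1, Nkd2 and Apcdd1 in S33 MEFs with dox.

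How the genes differ by Apc state in pluripotent cells was asked first with RTCs against their derivatives. Axin2, the destruction complex scaffold, was at 10.57, 10.44 and 10.41 in RTC 1, 2 and 3, against 8.26 in derivative #45 and 8.72 in derivative #9. The groups did not overlap, and the difference was 1.98 ± 0.20 (SE, n = 3 and 2, limma adjusted p = 0.00737). Within a line it was 2.31 between RTC 1 and #45 and 1.69 between RTC 3 and #9. With the parent line as a block the adjusted p was 0.00224, and without RTC 1 it was 0.0633.

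Among the receptor ligases, Rnf43 was at 8.29, 8.34 and 8.17 in RTC 1, 2 and 3, against 7.14 in derivative #45 and 7.21 in derivative #9. It rose by 1.09 ± 0.17 (SE, n = 3 and 2, limma adjusted p = 0.0317) in RTCs. Rnf43 passed the filter on dim genes, which keeps a gene above the array median on at least 1 of the arrays compared, through the RTC arrays alone; a stricter filter dropped it. The call was lost with the parent line as a block (adjusted p = 0.0718), with the values as deposited (0.258), and when any array but #45 was left out (0.0636 to 0.15). Znrf3, its close relative in function, was at 9.96, 10.08 and 9.96 in RTCs, against 9.15 in #45 and 10.32 in #9. The derivatives lay on either side of the RTCs, so the difference of 0.27 ± 0.32 turned sign when #45 was left out (-0.32).

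Of the genes acting on ligands, Notum was at 8.14, 8.03 and 8.05 in RTCs, against 7.55 in #45 and 7.63 in #9. The groups did not overlap, but the difference of 0.49 ± 0.17 did not pass the test (adjusted p = 0.259). Apcdd1 was at 8.55, 8.60 and 8.83 in RTCs, against 8.65 in #45 and 8.95 in #9. Its groups overlapped, with a difference of -0.14 and a 95% interval of -0.59 to 0.31.

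The Naked genes did not pass the test in RTCs. Nkd2 was at 7.64, 7.83 and 7.92 in RTC 1, 2 and 3, against 8.51 in #45 and 8.86 in #9, so that every RTC was below every derivative. The difference of -0.89 ± 0.20 did not pass the test (adjusted p = 0.0821). It was of like size within each line, -0.87 for RTC 1 and #45 and -0.95 for RTC 3 and #9. Nkd1 was at 8.45, 8.69 and 9.08 in RTCs, against 8.60 in #45 and 8.88 in #9. The mean difference was -0.00, with an interval of -0.55 to 0.54. Fibroblast markers, which are high in MEFs, where Nkd2 is high as well, averaged 8.92, 9.66 and 9.44 in RTCs, against 9.20 in #45 and 8.99 in #9; their part in the result was not tested.

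In all, 2 of 7 members were called in RTCs against derivatives, where 1.60% of 11940 genes were called. Groups did not overlap for 3 members that were higher and 1 that was lower, against 13.9% and 17.2% of all genes tested. Rnf43 and Notum passed the filter through the RTC arrays alone and Nkd2 through the derivatives alone, so nothing is read from these counts. Immune cell markers averaged 8.44, 9.25 and 9.34 in RTCs, against 8.51 in #45 and 8.10 in #9, and 1 of 9 measured rose; their part in the results was not tested.

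RTCs were also set against the 3 control ESC arrays. Axin2 was at 8.61 in Apc Min/+, 8.41 in Apc +/+ and 9.14 in S33 ESCs, all below the 3 RTCs, and it rose by 1.75 ± 0.19 in RTCs (SE, n = 3 and 3, limma adjusted p = 0.00388). It alone of the 7 was called, where 6.69% of 12080 genes were. Rnf43 had 7.44, 6.99 and 7.84 in those ESCs, again with no overlap with the RTCs. Its difference of 0.84 ± 0.21 had an adjusted p of 0.0618, and one of 0.011 without the S33 array, when 2 members were called. Nkd2 was lower in every RTC than in every one of these ESCs (8.06, 8.07 and 8.49), with a difference of -0.41 ± 0.16 that did not pass (adjusted p = 0.179). Of all genes tested, 14.2% were higher and 17.7% lower without overlap. Here too Rnf43 passed the filter through the RTCs alone and Nkd2 through the ESCs alone. Notum, Znrf3, Nkd1 and Apcdd1 overlapped between RTCs and ESCs. Markers of other cells moved in this comparison. Immune cell markers averaged 8.44, 9.25 and 9.34 in RTCs, against 7.55 in Apc Min/+, 7.51 in Apc +/+ and 7.75 in S33 ESCs, and 4 of 9 measured rose. Trophoblast markers averaged 7.42, 7.64 and 7.72 in RTCs, against 8.60 in Apc Min/+, 8.66 in Apc +/+ and 7.80 in S33 ESCs, and 2 of 6 measured fell. Fibroblast markers averaged 8.92, 9.66 and 9.44 in RTCs, against 10.48, 10.44 and 9.06 in those ESCs, with 0 of 11 called. Primitive endoderm markers averaged 8.16, 9.73 and 9.21 in RTCs, against 8.55, 8.32 and 8.37, with 0 of 7 called. Their part in the results was not tested.

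Derivatives and these ESCs were compared to see whether the derivatives sit at ESC level. limma called 0 of 6 members tested and 0% of 11941 genes, with 1012 genes at an unadjusted p under 0.05. For Axin2 the difference was -0.23, with a 95% interval of -0.88 to 0.42, which leaves out the 1.75 seen between RTCs and the same ESCs. Nkd2 was higher in both derivatives than in the 3 ESC arrays, by 0.48 ± 0.22 (adjusted p = 0.62), a placing shared by 12.2% of genes. The 3 contrasts among RTCs, derivatives and ESCs share arrays. Rnf43 stood below the array median on all 5 arrays and was not tested.

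**Figure D2:**
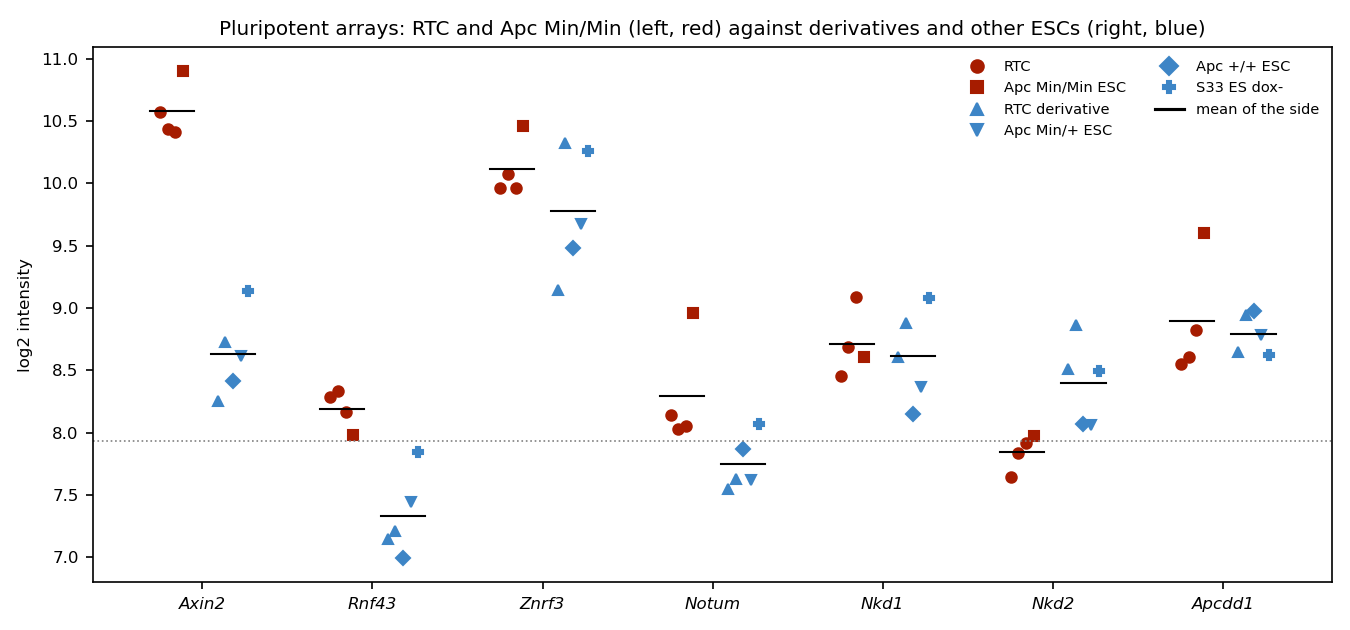
Log2 intensity of each gene in the RTC and Apc Min/Min ESC arrays (red, left) and in the derivatives, Apc Min/+, Apc +/+ and S33 ESCs without dox (blue, right), with 1 point per array and bars for means. The sides are apart for Axin2 and Rnf43, which are higher on the left, and for Nkd2, which is lower.

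Apc Min/Min ESCs had 1 array. Set against the same 3 control ESCs, and taking the lone array to vary like them, limma called Axin2 (10.90, difference 2.18 ± 0.32, n = 1 and 3, adjusted p = 0.0414) and no other member, where 3.57% of 11933 genes were called. The call was lost without Apc +/+ (adjusted p = 0.102) or without Apc Min/+ (0.174). Without S33, when the controls are the close pair of Apc +/+ and Apc Min/+, 5 members and 4810 genes in all were called.

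The other members in Min/Min are given as values, since none passed the test. Notum was at 8.96 in Apc Min/Min ESCs, against 7.62 in Apc Min/+, 7.87 in Apc +/+ and 8.07 in S33 ESCs, a difference of 1.11 ± 0.24 from their mean (adjusted p = 0.0715). Apcdd1 was at 9.60 in Min/Min, against 8.78, 8.98 and 8.62 in those controls (0.81 ± 0.22, adjusted p = 0.0983). Znrf3 at 10.46 and Rnf43 at 7.98 were also above each of the 3, while Nkd2 at 7.97 was below each. Such a placing is common here: 31.1% of genes lay above and 40.8% below all 3 controls. Markers of primitive endoderm moved as well, averaging 10.88 in Min/Min against 8.55 in Apc Min/+, 8.32 in Apc +/+ and 8.37 in S33 ESCs. Fibroblast markers averaged 10.92 in Min/Min, against 10.48 in Apc Min/+, 10.44 in Apc +/+ and 9.06 in S33 ESCs, and 0 of 11 measured were called. The labels' growth protocol names a trophoblast stem cell medium for Min/Min ESCs, without saying whether this array came from it. Trophoblast markers averaged 7.76 in Min/Min, against 8.60 in Apc Min/+, 8.66 in Apc +/+ and 7.80 in S33 ESCs. The part of the medium or of these markers in the result was not tested.

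A single Min allele was accompanied by smaller differences. In Apc Min/+ against Apc +/+ ESCs, 0 of 7 members, 5 of which passed the filter on dim genes, were 2-fold apart, where 0.107% of 11244 genes were. Axin2 was at 8.61 in Min/+ and 8.41 in +/+, and Rnf43 at 7.44 in Min/+ and 6.99 in +/+. Against the same Apc +/+ array, the Min/Min array had Axin2 5.60-fold and Notum 2.13-fold higher, so that 2 of 7 members were at least 2-fold apart, where 10.3% of 11390 genes were. Rnf43 (1.99-fold higher) and Znrf3 (1.97-fold higher) lay just under that cut. Notum and Rnf43 passed the filter through the Min/Min array alone, so nothing is read from the count. These contrasts have 1 array per arm and no test.

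Taking the 9 arrays together, RTCs and Apc Min/Min ESCs against derivatives and the 3 control ESCs, limma called Axin2 (1.95 ± 0.19, SE, n = 4 and 5, adjusted p = 0.000441) and Rnf43 (0.87 ± 0.18, adjusted p = 0.0238), where 3.71% of 12360 genes were called. Rnf43 passed the filter through the RTC and Min/Min arrays alone, so nothing is read from the count of calls. Axin2 had 10.41 to 10.90 on the first side and 8.26 to 9.14 on the second. Rnf43 had 7.98 to 8.34 on the first side and 6.99 to 7.84 on the second. The Rnf43 call was lost in 5 of 9 fits with an array left out, those without RTC 1, RTC 2, RTC 3, #45 or Apc +/+ (adjusted p = 0.052 to 0.0842), and with the values as deposited (0.0964), and the Axin2 call in none of them. Nkd2 ran the other way without overlap, 7.64 to 7.97 on the first side and 8.06 to 8.86 on the second, with -0.56 ± 0.18 and adjusted p = 0.13. The sides were apart for 2 members that were higher and 1 that was lower, against 3.24% and 5.83% of genes. These 9 arrays are those of the comparisons above, so the result is no separate evidence. Apc differed by -0.04 and Ctnnb1 by -0.02 between the sides (adjusted p = 0.958 and 0.968).

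**Figure D3:**
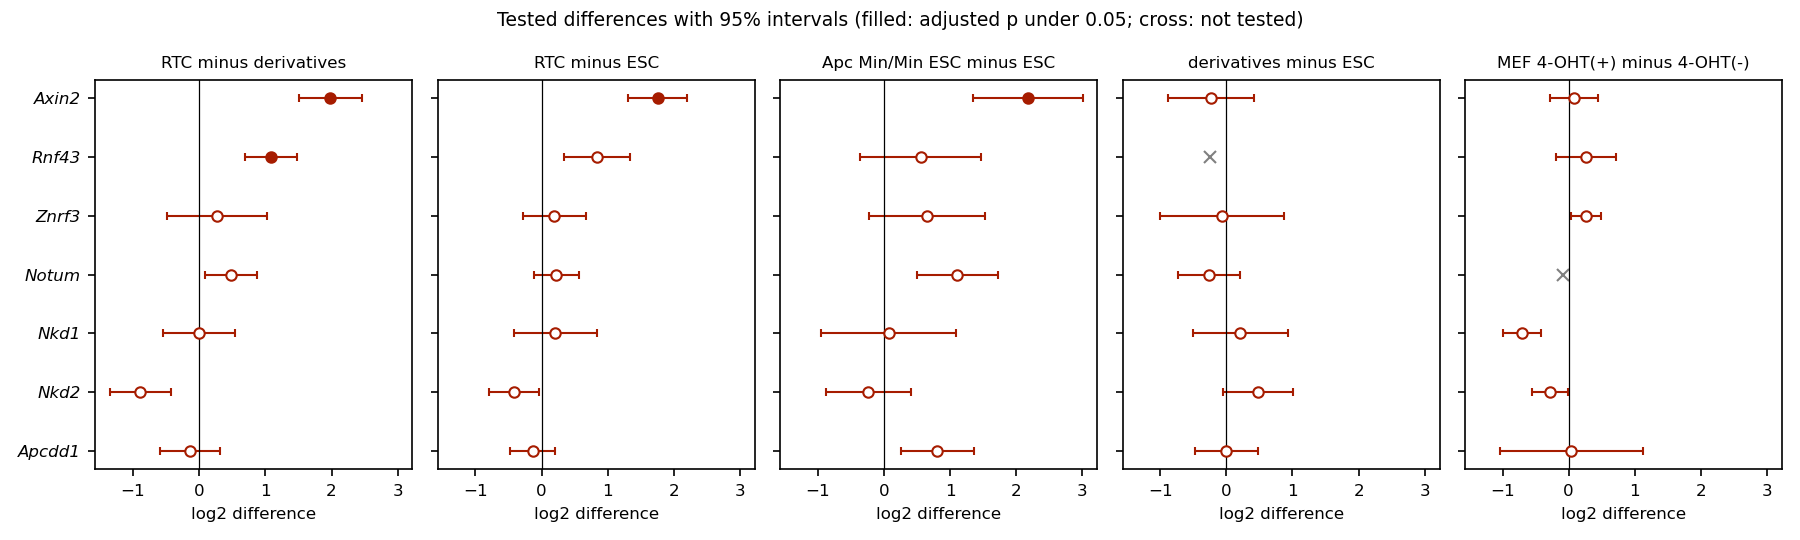
Log2 difference of each gene (horizontal axis) in 5 tested comparisons, with 95% intervals from limma. Filled points passed the adjusted threshold and crosses mark genes under the filter on dim genes. Axin2 is filled in all 3 comparisons of RTC or Apc Min/Min cells and close to 0 in MEFs with against without 4-OHT.

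The effect of 4-OHT was read in organoids and MEFs derived from the same derivative, #45. In organoids, 1 array per arm and with no test, the largest difference was that of Nkd1, the Dishevelled binder, at 11.03 with 4-OHT against 8.95 without. This is 4.24-fold, rank 24 by rise among 11397 genes, and 2.08 on the log2 scale against a pooled SD of 0.23. Notum was at 8.55 with 4-OHT against 7.50 without, which is 2.06-fold.

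Of the remaining members, 4 were higher by less than 2-fold. Rnf43 differed by 0.64, Apcdd1 by 0.68, Axin2 by 0.50 and Znrf3 by 0.46. Nkd2 stayed under the array median on both organoid arrays and is given no direction, since its sign turned with the values as deposited. So 2 of 7 members, 6 of which passed the filter, were at least 2-fold higher, where 2.10% of 11397 genes were. Notum passed it through the 4-OHT array alone. These counts moved with the scaling: centring arrays on their medians put 5 members past 2-fold and shifted the median of all genes by 0.40, while the values as deposited put 1 past it, with a shift of -0.22. Nkd1 was past 2-fold on each scale, by 1.88 to 2.51. Intestinal epithelium markers averaged 12.60 with and 12.77 without 4-OHT.

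In MEFs, limma without a block called 0 of 6 members tested and 0% of 11603 genes with against without 4-OHT, while 519 genes had an unadjusted p under 0.05. Axin2 was at 8.53 and 8.81 in MEFs with 4-OHT, against 8.55 and 8.63 in MEFs without. The difference was 0.08, with a 95% interval of -0.29 to 0.45. Nkd1 was at 9.29 and 9.11 with 4-OHT, against 9.91 and 9.90 without, lower on both arrays. The difference was -0.62 in the first pair of arrays and -0.78 in the second. Its mean of -0.70 ± 0.10 did not pass in this fit (adjusted p = 1). A fit with the array number as a block, given at the end, did call Nkd1. Same-numbered arrays deviated together (correlation 0.85 over 11603 genes), though the labels do not tie the numbers to a shared culture. Without a block, the other differences lay between -0.29 for Nkd2 and 0.26 for Rnf43 and Znrf3.

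Notum was below the array median on all 4 of these MEF arrays, at 7.39 and 7.67 with 4-OHT against 7.52 and 7.72 without. Apcdd1 differed more between the 2 pairs of arrays than with treatment: it was at 9.43 and 10.25 with 4-OHT, against 9.46 and 10.15 without. The groups did not overlap for Znrf3, which was higher, nor for Nkd1 and Nkd2, which were lower, against 17.9% and 14.9% of genes. Fibroblast markers averaged 12.09 and 12.01 with 4-OHT against 12.47 and 12.41 without; their part in the lower Nkd1 and Nkd2 was not tested.

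Whether 4-OHT acted differently in the 2 cell types was tested as an interaction, taking the organoid arrays to vary like the MEF arrays. The effect on Nkd1 was 2.79 ± 0.18 larger in organoids than in MEFs (SE, 2 organoid and 4 MEF arrays), with limma adjusted p = 0.139. Over the other settings that adjusted p ran from 0.00429 to 0.159. For Notum the difference was 1.13 ± 0.25 (adjusted p = 0.271). Without a block, limma called 0 of 7 members and 0% of 12995 genes, with 1684 at an unadjusted p under 0.05. The fit with a replicate block, given at the end, called Nkd1, Notum and Apcdd1. The doses differed between organoids and MEFs.

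With dox the members were higher in S33 MEFs and close to their level without dox in S33 ESCs. In S33 MEFs all 7 members were more than 2-fold higher with dox, where 2.50% of 11390 genes were at least 2-fold higher. The median difference of the 7 was 2.67, against 0.04 for all genes. Notum and Rnf43 passed the filter on dim genes through the dox array alone, so nothing is read from the count or this median. Each arm is 1 array and no test was made. Each of the 7 with dox also lay above all 5 other MEF arrays of the series, as did 31.5% of the genes.

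Notum, the Wnt deacylase, was at 10.60 with dox against 7.30 without, 9.79-fold apart, and at 7.30 to 7.72 in the 5 other MEF arrays. As deposited, its intensity was 1466 with dox and 164 without. Nkd2 was at 12.42 with dox against 9.25 without, 8.98-fold apart, and at 8.79 to 9.25 in the other MEFs. Its deposited intensities were 5046 with dox and 589 without. Notum ranked 8 and Nkd2 13 by rise among the genes that passed the filter.

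Apcdd1 was at 13.06 with dox against 10.10 without (7.74-fold), Axin2 at 11.27 against 8.60 (6.35-fold), Rnf43 at 10.14 against 7.67 (5.52-fold) and Nkd1 at 12.10 against 9.83 (4.84-fold). Their ranks by rise were 19, 26, 36 and 45. Znrf3 had the smallest difference of the 7, at 10.46 against 9.22 (2.37-fold, rank 179). Pooled SDs of these genes were 0.12 to 0.37. They describe single arrays and include no S33 replicates, while each difference is between 2 arrays. The difference was 3.32 times that SD for Znrf3 and at least 8.11 times for the other 6, which is no test. For Apcdd1 the SD in #45-derived MEFs alone was larger, 0.58 with and 0.49 without 4-OHT. Notum and Rnf43, which were below the array median without dox, entered through the dox array alone, so nothing is read from their ranks either. Fibroblast markers averaged 12.08 with dox and 12.65 without, and Ctnnb1 was at 13.02 with and 12.96 without.

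In S33 ESCs, 0 of 7 members, 6 of which passed the filter, were 2-fold apart with dox, where 3.16% of 11254 genes were. Axin2 was at 9.35 with dox against 9.14 without, a difference of 0.22, and Apcdd1 at 8.82 against 8.62. The other 5 were lower in value with dox: Nkd1 was at 8.75 against 9.08, Rnf43 at 7.58 against 7.84, Nkd2 at 8.25 against 8.49, Notum at 7.87 against 8.07 and Znrf3 at 10.07 against 10.26. Rnf43 was under the array median on both arrays and did not pass the filter. No difference exceeded 0.33 on the log2 scale. Both S33 ESC arrays had more Axin2 than Apc Min/+ (8.61) and Apc +/+ (8.41) ESCs, the array without dox included. Primitive endoderm markers averaged 9.28 with dox and 8.37 without, and fibroblast markers 8.27 with and 9.06 without. The difference between the dox effects in MEFs and ESCs was not tested.

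**Figure D4:**
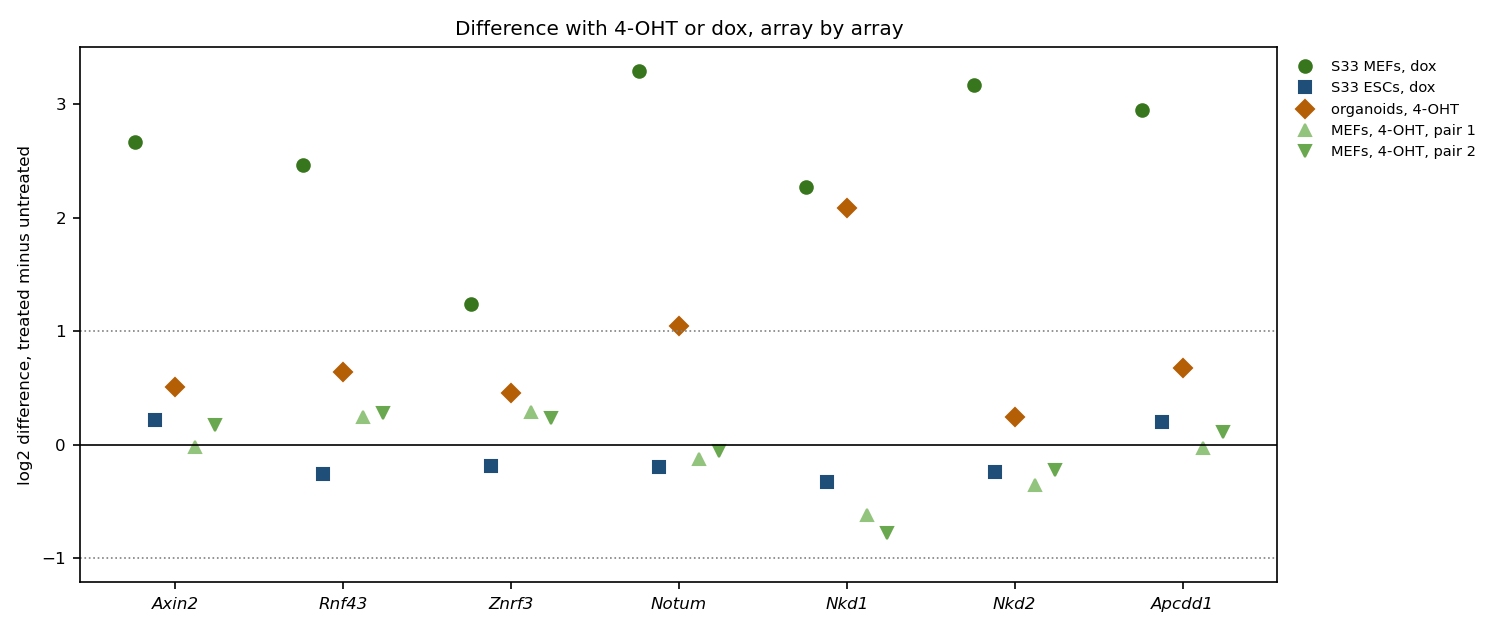
Log2 difference, treated minus untreated, of each gene in S33 MEFs and S33 ESCs with dox and in organoids and the 2 pairs of MEFs with 4-OHT, 1 point per pair of arrays. Dotted lines mark 2-fold. All 7 genes are past 2-fold in S33 MEFs with dox, none in S33 ESCs, and Nkd1 and Notum in organoids.

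Other genes of the pathway, from lists chosen with earlier results known, give the setting of these changes. In RTCs against derivatives, 6 of 17 other Wnt-induced genes measured rose and 0 fell (list median 0.41, all genes -0.02). They included the homeobox genes Nkx1-2 (2.59), Cdx2 (1.77) and Cdx1 (at 10.19 in RTCs against 8.70), the signalling gene Bmp4 (1.77) and the transcription factor Sp5 (1.69). In this comparison 1.60% of 11940 genes were called in either direction. The derivatives averaged 7.04 for Cdx2, 7.46 for Sp5 and 7.83 for Nkx1-2, under the array median of 7.93. These genes may have passed the filter through the RTC arrays alone, so nothing is read from the count. Among 18 other inhibitors of the pathway 0 rose and 2 fell: the Dishevelled-binding Dact1 (-1.72 ± 0.20, limma adjusted p = 0.0116) and the secreted antagonist Sfrp2 (-1.95 ± 0.18, limma adjusted p = 0.00486). Sfrp2 averaged 7.65 in RTCs, also under that median. Of 15 receptors and Dishevelled genes, which Rnf43, Znrf3, Nkd1 and Nkd2 act on, the receptor Fzd10 rose (1.52) and 0 fell. limma called no gene of the R-spondin arm (5 measured), of the ligands and their release (10) or of the destruction complex (9). Frizzled receptors did fall in other comparisons. In RTCs against the control ESCs, Fzd10 rose (0.98) and Fzd2 fell (-1.11), where 6.69% of all genes were called. Over the 9 arrays, Fzd10 rose (1.14) while Fzd7 (-0.88) and Fzd8 (-0.56) fell, where 3.71% were called.

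Of 18 Wnt-induced genes in Apc Min/Min ESCs against the 3 control ESCs, limma called Nkx1-2 (3.18), Cdx2 (2.25), Sox9 (1.67) and the R-spondin receptor Lgr5. Lgr5 was at 8.32 against 6.82, and all of these were higher in Min/Min, where 3.57% of all genes were called. The controls averaged 7.46 for Nkx1-2, 7.23 for Cdx2 and 6.82 for Lgr5, under the array median of 7.93. These genes may have passed the filter through the Min/Min array alone, so nothing is read from their number. Of 15 other inhibitors, limma called the secreted antagonist Dkk1, higher by 3.81 ± 0.27, and Dact1, lower by 2.21 ± 0.23. Dact1 was at 7.48 in Min/Min, under the array median, and passed the filter through the control ESCs alone.

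In organoids with 4-OHT, 2 of 15 Wnt-induced genes measured were at least 2-fold higher, the receptor Tnfrsf19 (1.89) and Sp5 (1.11), and 0 lower. Over all genes, 2.10% of 11397 were at least 2-fold higher. Among 11 other inhibitors Dact1 (1.55) and Sfrp5 (1.46) were 2-fold higher. Dact1 was at 6.79 without 4-OHT, under the array median, and passed the filter through the 4-OHT array alone. In MEFs with 4-OHT, limma called 0 genes of these 7 lists, where it called 0% of 11603 genes in all.

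In S33 MEFs with dox, where all 7 feedback genes were raised, 3 of 13 other Wnt-induced genes were at least 2-fold higher and 2 lower (list median 0.45). Over all genes, 2.50% of 11390 were at least 2-fold higher. The share of all genes that were 2-fold lower is not given here, so nothing is read from the numbers of lower genes. Tnfrsf19 (2.56), Lef1 (2.47) and the homeobox gene Msx2 (2.25) were higher, and Lgr5 (-1.50) and Sox9 (-1.15) lower. Among 19 other inhibitors, Dkk2 (1.54), Dkk1 (1.41), the Dkk receptor Kremen1 (1.27) and Wif1 (1.18) were higher, and Sfrp1 (-2.33) was lower. Without dox, Lef1 (7.89) and Wif1 (7.14) were under the array median, so they passed the filter through the dox array alone. Of 6 R-spondin arm genes, Lgr4 (-1.27) and Lgr5 were lower and 0 higher. In S33 ESCs with dox, 0 of 15 Wnt-induced genes were 2-fold higher and 3 were lower, Lef1 (-2.59), the adhesion receptor Cd44 (-1.86) and Myc, at 9.90 with dox against 10.90 without. Over all genes, 3.16% of 11254 were 2-fold apart in either direction. With dox, Lef1 (7.78) and Cd44 (7.82) were under the array median, so they passed the filter through the array without dox alone.

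Genes with the most similar pattern were ranked by Pearson correlation, as a description with no test. The arrays share cell types and lines, so the points are not independent. Over the 18 arrays, a few arrays can also carry the correlation. S33 MEFs with dox stood 3.17 above the next array for Nkd2, 2.80 for Apcdd1 and 1.64 for Notum. For Rnf43 the lower of the 2 organoid arrays stood 1.40 above the next. Over the 18 arrays, Tnfrsf19 was nearest to Axin2 (r = 0.93) and to Znrf3 (0.92), Wnt2b to Apcdd1 (0.96), Trpc6 to Nkd2 (0.94), Rassf9 to Nkd1 (0.94), Ghrl to Rnf43 (0.94) and Nebl to Notum (0.83). Over the 10 pluripotent arrays the nearest to Axin2 were Plagl1 (0.99), Il6ra (0.98) and Cdx2 (0.96), and the nearest to Rnf43 was Sp5 (0.97). Among the members themselves, Axin2 and Rnf43 had r = 0.91 over those 10 arrays, and Axin2 and Nkd2 r = -0.68.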

How the data were processed

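RNA purified with column kits was measured on 18 single-colour Affymetrix arrays. The authors' deposited table holds a linear intensity for each of 28856 probe sets, and its scaling and software are not given in the sources used here. Array medians ran from 142 to 317, and up to 19.2% of values were identical between some arrays, as when arrays are scaled in separate sets. Here log2 values were quantile normalized jointly. Of 28853 probe sets with values, 21789 carried 1 symbol, 1621 several and 5443 none. The probe set with the highest mean stood for each of 19938 genes. Symbols came from the platform annotation, and 21698 were matched to RefSeq by gene identifier with 0 changed.

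Groups were taken from the sample titles. limma 3.58.1 in R 4.3.3 was fitted to the arrays of each comparison over all genes above the array median on at least 1 of them, without a block, with Benjamini-Hochberg adjustment at 0.05. All p-values are two-sided limma p-values adjusted over all genes tested. Contrasts with 1 array per arm were described by 2-fold differences. RTC 1 pairs with #45 and RTC 3 with #9 by the line of origin in the titles. The deviations of these pairs from their group means had correlations of 0.10 and 0.025 over 11940 genes. The number of arrays limits the precision. The code was tested on simulated data. Members, lists and tests were chosen with earlier results of these data known. Apart from Apc and Ctnnb1, genes of the other Wnt lists were named only if called or 2-fold apart. At most the 5 largest per list and direction were named. Not every such gene is named, so absence from the text does not mean that a gene was not called.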

Additional observations from a re-analysis of the deposited data

Results flagged for a closer look

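Among the 3 RTC arrays and the Apc Min/Min ESC array, Notum stood apart in Min/Min at 8.96, against 8.03 to 8.14 in the RTCs. Chance sets a sample apart in about 1 in 20 groups by this measure. These arrays mix RTCs with an ESC line, so that rate may not hold here. The dox effect had opposite signs in the S33 cell types for 5 genes, all raised in MEFs. Of these, Rnf43 was under the array median on both S33 ESC arrays. In ESCs with dox the differences were -0.33 for Nkd1, -0.24 for Nkd2, -0.20 for Notum, -0.26 for Rnf43 and -0.19 for Znrf3. They were at most 1.85 times the SD between replicate arrays, and the difference between the cell types was not tested.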

How the results depend on the processing

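Of 635 member values under other settings, 566 kept their direction and their side of the threshold or stayed within the spread, 16 lost a call, 14 gained one, 26 changed sign and 13 moved. The causes were not tested. Axin2 kept its call between RTCs and ESCs, and between the 4 and 5 pluripotent arrays, in every setting run. With the values as deposited, the genes called were 358 for RTCs against ESCs, 81 for RTCs against derivatives (1 member), 11 for derivatives against ESCs, 834 for Min/Min against ESCs, 186 over the 9 arrays (1 member) and 1 for the 4-OHT interaction. With a stricter filter the counts were 352 for RTCs against ESCs, 53 for RTCs against derivatives (1 member), 196 over the 9 arrays (1 member) and 2 for the interaction. A trend in the variance prior gave 687 genes for Min/Min, 4 for the interaction, and 1 member for RTCs against derivatives. In 1 fit over all 18 arrays the counts were 561 for RTCs against derivatives, 106 for derivatives against ESCs, 1777 for Min/Min (2 members), 1439 over the 9 arrays (4 members) and 8 for the interaction, and 2 members for RTCs against ESCs. In that fit Nkd2 was called for RTCs against derivatives (limma adjusted p = 0.0163). Genes at least 2-fold apart numbered 41 as deposited and 20 centred for Min/+ against +/+ ESCs. In organoids they were 726 as deposited (1 member) and 613 centred (5 members). As deposited, the median of all genes shifted by 0.32 for Min/+ against +/+ ESCs.

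With the line of origin as a replicate block, 1 member was called for RTCs against derivatives and Nkd1 was at 0.026. For MEFs, whose numbers the labels do not tie to a shared culture, same-numbered arrays deviated together (correlation 0.85 over 11603 genes). The replicate block gave 148 genes and 1 member with 4-OHT (Nkd1, limma adjusted p = 0.0432). For the interaction it gave 1358 genes and 3 members (Nkd1, Notum and Apcdd1, adjusted p = 0.00429, 0.0128 and 0.0491).

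With 1 array left out, the genes called ran from 234 to 1170 for RTCs against ESCs (1 to 2 members), from 33 to 383 for RTCs against derivatives (0 to 2 members), from 0 to 4810 for Min/Min (0 to 5 members) and from 226 to 510 over the 9 arrays (1 to 2 members). The changes of sign were all among differences that passed no test. For RTCs against derivatives, Nkd1 was at 0.15 and Apcdd1 at 0.021 as deposited. With 1 array left out Nkd1 ran from -0.17 to 0.14, Apcdd1 from -0.29 to 0.013 and Znrf3 from -0.32 to 0.85. For derivatives against ESCs, Apcdd1 was at -0.14 as deposited, -0.078 centred and -0.15 to 0.15 with 1 array left out, where Axin2 ran from -0.46 to 0.0046 and Znrf3 from -0.66 to 0.52. For Min/Min, Nkd1 was at -0.10 as deposited and ran from -0.12 to 0.35. Over the 9 arrays, Nkd1 ran from -0.035 to 0.21 and Apcdd1 from -0.13 to 0.22. In MEFs, Axin2 ran from -0.062 to 0.22 and Apcdd1 from -0.37 to 0.45. For the interaction, Nkd2 was at -0.26 as deposited.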
